A study of Mus musculus with 6 samples.

Results

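Genes for glucose transport, glycolysis, lactate handling and glycogen metabolism were examined in RNA-seq of whole uteri from 3 control and 3 *Gp130* ecKO mice. The 42 genes were taken as a list of symbols by function, and all 42 were found among the 56748 gene identifiers of the deposited tables. *Gp130* ecKO females carried 1 *Ltf* iCre allele and homozygous floxed *Gp130* (*Ltf* iCre/+; *Gp130* flox/flox), whereas control females were either *Ltf* +/+; *Gp130* flox/flox or wildtype, and the labels call all 3 controls WT. All were sexually mature females (over 8 weeks old) on a C57BL/6 background, given as C57BL/6J in the study's methods. They were mated with wildtype males, and their uteri were taken at 1600 h on day 4 of pregnancy, a time before embryos attach. *Gp130* (symbol *Il6st*) encodes the receptor subunit through which leukemia inhibitory factor and related cytokines signal, and the *Ltf* iCre driver acts in uterine epithelium after sexual maturity. *Ltf* is also expressed in some neutrophils and macrophages, which limits the deletion as a purely epithelial one. The labels give each library as 1 uterus sample and do not say which female it came from, so p-values measure the spread between these samples.

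Glucose enters cells through facilitative transporters of the Slc2a family or with sodium through Slc5a1, is phosphorylated by hexokinases and is split to pyruvate by the glycolytic enzymes. Pyruvate is reduced to lactate and exported with a proton by monocarboxylate transporters, or enters mitochondria, where pyruvate dehydrogenase kinases restrain its oxidation. Glucose 6-phosphate can also be turned by phosphoglucomutase and UDP-glucose pyrophosphorylase into UDP-glucose, the substrate of glycogen synthase, and glycogen phosphorylase releases it again. The uterine epithelium is known to store glycogen, and decidualizing stroma is known for high glucose uptake and glycolysis.

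Total expected counts per uterus, the sums of RSEM's estimated reads per gene, were 13960748 to 25906443, with control 3 the shallowest. Values are given as CPM, each gene's count scaled to the TMM-adjusted size of its library, and levels of different genes are compared only as deposited TPM, which is scaled for gene length. On the first dimension of a multidimensional scaling plot, controls 1 and 3 lay at 2.09 and 2.08, control 2 at 0.03, and the *Gp130* ecKO uteri between −1.47 and −1.32, so control 2 stood between the other controls and the *Gp130* ecKO uteri. *Il6st* was at 631, 678 and 452 CPM in the control uteri and at 388, 349.8 and 362 CPM in the *Gp130* ecKO uteri, every *Gp130* ecKO value below every control (log2 fold change −0.68 ± 0.21 SE, adjusted p = 0.120 by edgeR's quasi-likelihood test).

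The members with the smallest p-values were *Pfkp* (fitted level 2.18-fold lower in *Gp130* ecKO), *Pygb* (2.10-fold higher), *Ugp2* (2.62-fold higher), *Gbe1* (log2 fold change 1.28) and *Slc16a1* (3.88-fold lower). The log2 fold changes of *Aldoa*, *Tpi1*, *Pgk1*, *Pgam1* and *Eno1* lay within 0.2 of 0. No member passed the main test. Of the 42 genes, 41 had enough counts to be tested and 0 reached an adjusted p under 0.05 in edgeR's quasi-likelihood test, where 0.157% of all 16605 genes tested did. At an unadjusted p under 0.05 there were 13 of 41 members (31.7%, against 25.0% of all genes tested), 7 higher and 6 lower in *Gp130* ecKO (12.1% and 12.9% of all genes). In 13 members the groups did not overlap (31.7%, against 31.3% of all genes), with 8 above and 5 below every control (15.7% and 15.6% of all genes). The non-overlapping share was thus near that of all genes. The median log2 fold change was 0.07 over the 41 members and −0.05 over all genes tested.

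The number past an adjusted p of 0.05 depended on the test. It was 9 members with edgeR's exact test (22.0%, against 8.99% of all genes) and also 9 with its likelihood ratio test (9.50% of all genes), 12 with DESeq2 (29.3%, against 13.4%), and 0 with limma voom (0.114% of all genes). When a fold over 2 was also required, the exact test gave 8 members (7.54% of all genes), the likelihood ratio test 8 (7.93%) and DESeq2 11 (9.31%). Without control 2, the quasi-likelihood test gave 6 members (14.6%, against 5.41% of all genes, and 5.23% at a fold over 2): *Pfkp*, *Pfkfb3*, *Slc16a1*, *Ugp2*, *Pygb* and *Fbp2*. The exact test gave *Slc5a1*, *Pfkp*, *Eno2*, *Slc16a1*, *Ugp2*, *Gbe1*, *Gyg1*, *Pygb* and *Fbp2*, and DESeq2 added *Slc2a1*, *Slc2a3* and *Slc16a3*. Each log2 fold change below is *Gp130* ecKO over control with its standard error, and adjusted p is from the quasi-likelihood test unless another is named.

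Markers of several cell types also stood apart between the groups. Summed CPM of 10 uterine epithelium markers was 2580.2 to 4341 in the controls and 5949 to 7794 in *Gp130* ecKO, with 9 of 10 fitted above 0. For 8 endometrial stroma markers the sums were 3284 to 4299 and 1946 to 2585, with 8 of 8 below 0, and for 6 endothelium markers 386 to 951 and 208 to 368, with 6 of 6 below 0. Smooth muscle markers (773 to 2992 and 578 to 3226 CPM, 7 of 8 below 0) and macrophage markers (386 to 486 and 252 to 543 CPM, 6 of 8 below 0) overlapped in their sums. Much of the macrophage sum was *Lyz2* (206 to 261 and 142 to 466 CPM), whereas *Mrc1*, named after its values were seen, was at 24.5 to 28.9 CPM in control uteri and 7.05 to 14.0 CPM in *Gp130* ecKO. Neutrophil markers summed to 5.93 to 9.45 CPM in control uteri and 1.22 to 4.64 CPM in *Gp130* ecKO, a level at which few counts are involved. Gland markers summed to 138 to 1068 and 203 to 8729 CPM, with *Gp130* ecKO 1 far above the rest through *Prss29* (6546 CPM), and adipocyte markers to 2.91 to 9.56 and 0.316 to 2.35 CPM. Red cell markers overlapped (179 to 338 and 47.8 to 323 CPM). In whole uteri, fewer cells of a type and less RNA per cell cannot be told apart, and the part of these markers in the values of the glucose and glycogen genes was not tested.

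**Figure D1:**
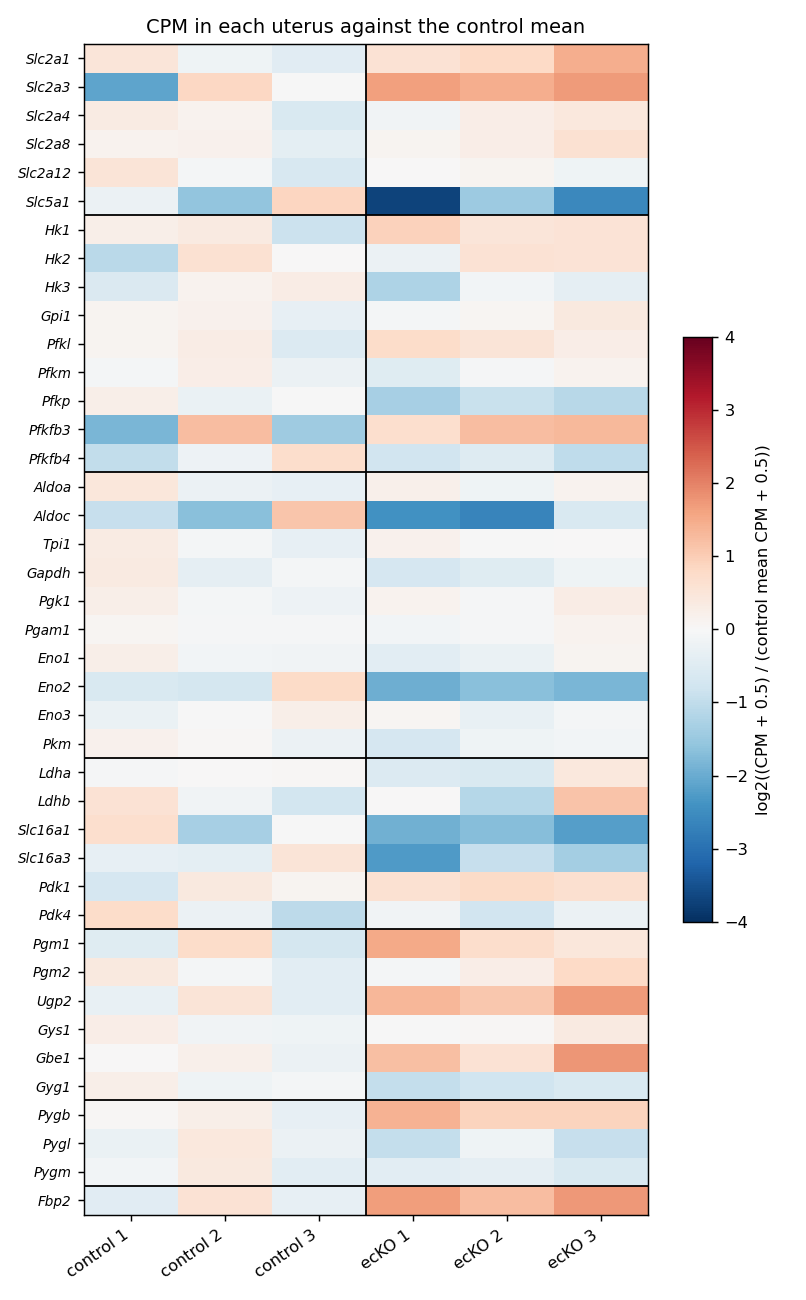
CPM of the 41 tested genes (rows, grouped by role between the black lines) in each of the 6 uteri (columns), coloured by the log2 ratio of CPM + 0.5 to the control mean CPM + 0.5. Control 2 is red like the *Gp130* ecKO uteri for *Slc2a3*, *Pfkfb3* and *Pgm1*, and *Ugp2*, *Gbe1* and *Pygb* are red in all 3 *Gp130* ecKO uteri.

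The glucose transporters differed by member. *Slc2a1* (GLUT1, the broadly expressed basal transporter, chr4:118965908-118996365 on GRCm39) was at 67.0, 42.1 and 34.6 CPM in control uteri and at 71.7, 82.8 and 131 CPM in *Gp130* ecKO uteri (log2 fold change 0.99 ± 0.32, adjusted p = 0.127). Its groups did not overlap, but control 1 lay close to *Gp130* ecKO 1. *Slc2a3* (GLUT3, a high-affinity transporter, chr6:122704768-122778599) was at 74.3, 572 and 315 CPM in control uteri and at 1008, 879 and 1046 CPM in *Gp130* ecKO, a 3.05-fold higher fitted level (log2 fold change 1.61 ± 0.62, adjusted p = 0.169). The log2 fold change of *Slc2a3* was 2.37 without control 2 and 1.16 without control 1. The 3 controls were spread widely and the 3 *Gp130* ecKO uteri were close together and above all of them. In mean TPM *Slc2a3* was the 12th most abundant of the 42 genes in the controls, at 115, and the 6th in *Gp130* ecKO, at 364.

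*Slc5a1* (SGLT1, which takes up glucose with sodium at the apical side of epithelia) had the opposite sign, with 51.5, 20.1 and 112 CPM in control uteri and 4.20, 21.9 and 9.87 CPM in *Gp130* ecKO. The groups overlapped, because *Gp130* ecKO 2 was above control 2 (log2 fold change −2.34 ± 0.74, adjusted p = 0.124). It was −1.58 without control 3 and −3.11 without *Gp130* ecKO 2. *Slc2a4* (GLUT4, the insulin-responsive transporter) was low in every uterus, at 5.22, 4.47 and 2.47 CPM in control uteri and 3.62, 4.96 and 5.64 CPM in *Gp130* ecKO uteri. Its log2 fold change was 0.21 ± 0.37 (adjusted p = 0.743), with a 95% confidence interval of −0.66 to 1.08. The intracellular transporter *Slc2a8* (0.36 ± 0.31) and *Slc2a12* (−0.02 ± 0.29) also overlapped between groups, and *Slc2a12* was at 139.8 to 312 CPM in control uteri. The summed TPM of the 6 transporters was 175 to 295 in the controls and 489 to 515 in *Gp130* ecKO, and *Slc2a3* made up most of it in *Gp130* ecKO.

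**Figure D2:**
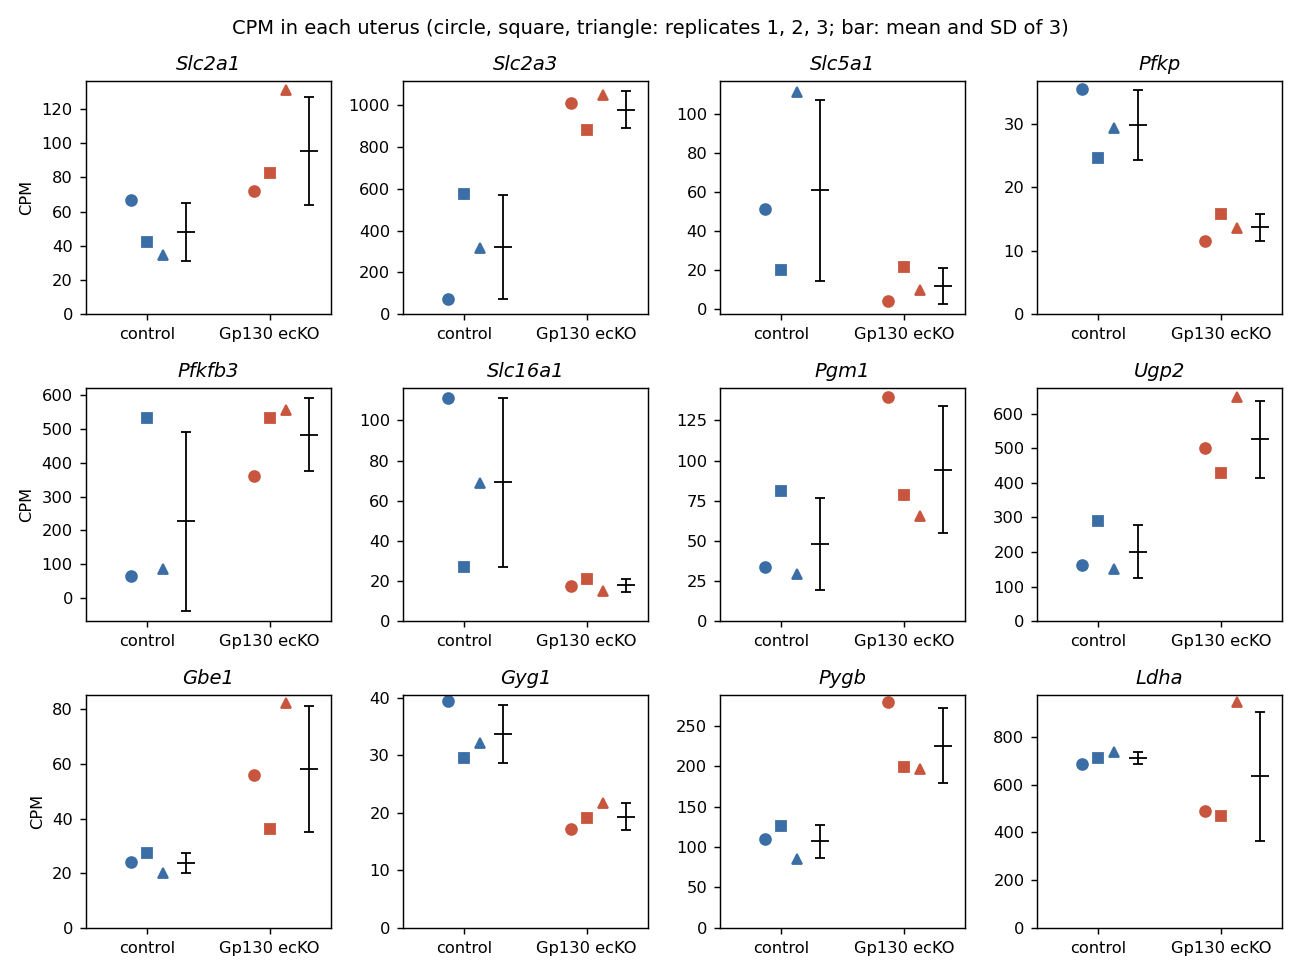
CPM of 12 genes in each uterus (vertical axis, own linear scale per gene), with controls in blue and *Gp130* ecKO in red, replicates 1 to 3 as circle, square and triangle, and the bar showing mean and SD of 3 uteri. The groups are apart for *Slc2a1*, *Slc2a3*, *Pfkp*, *Slc16a1*, *Ugp2*, *Gbe1*, *Gyg1* and *Pygb*, and control 2 lies among the *Gp130* ecKO uteri for *Pfkfb3* and *Pgm1*.

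Among the enzymes that phosphorylate glucose, *Hk1* (the widely expressed hexokinase) was at 87.9, 96.5 and 41.6 CPM in control uteri and at 144, 105 and 111 CPM in *Gp130* ecKO. Its groups did not overlap, though the gap between control 2 and *Gp130* ecKO 2 was small (log2 fold change 0.67 ± 0.32, adjusted p = 0.234). *Hk2* (the inducible hexokinase) was at 24.6, 79.5 and 53.3 CPM in control uteri and at 44.2, 78.5 and 76.5 CPM in *Gp130* ecKO, overlapping fully (0.34 ± 0.42, adjusted p = 0.633). *Hk3*, known from myeloid cells, was at 0.728 to 1.73 CPM in control uteri and 0.271 to 1.19 CPM in *Gp130* ecKO, from 6 to 39 counts (−0.69 ± 0.59). *Gpi1*, which makes fructose 6-phosphate, was at 237 to 329 CPM in control uteri and 276 to 385 CPM in *Gp130* ecKO (0.14 ± 0.21).

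Phosphofructokinase, the committed step of glycolysis, showed the smallest p among the members in its platelet-type isoenzyme. *Pfkp* (chr13:6629798-6698970) was at 35.6, 24.6 and 29.4 CPM in control uteri and at 11.6, 15.8 and 13.6 CPM in *Gp130* ecKO, all 3 below every control and 2.18-fold lower in the fit (log2 fold change −1.12 ± 0.23, adjusted p = 0.0718, and 0.000845 to 0.231 over 18 alternatives). The liver-type *Pfkl* was at 106, 119.9 and 66.0 CPM in control uteri and at 161, 139.8 and 116 CPM in *Gp130* ecKO (0.51 ± 0.25, adjusted p = 0.244), where *Gp130* ecKO 3 lay within the control range. The muscle-type *Pfkm* had a log2 fold change of −0.11 ± 0.25.

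*Pfkfb3*, which makes the phosphofructokinase activator fructose 2,6-bisphosphate, rested on control 2. It was at 63.4, 534 and 84.6 CPM in control uteri and at 361, 534 and 557 CPM in *Gp130* ecKO, so control 2 matched *Gp130* ecKO 2 while the other controls were lower than every *Gp130* ecKO uterus. The log2 fold change was 1.09 ± 0.76 (adjusted p = 0.396) with all uteri and 2.75 without control 2 (adjusted p = 0.0106, with 0.0106 to 0.649 over 18 alternatives). Without control 1 it was 0.66. *Pfkfb4*, its relative, was at 6.59 to 22.0 CPM in control uteri and 6.34 to 9.31 CPM in *Gp130* ecKO (−0.78 ± 0.44).

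The main enzymes from aldolase to pyruvate kinase were abundant and overlapped between groups. In mean control TPM the first 6 of the 42 genes were *Gapdh* (765 ± 186 SD, n = 3), *Ldha* (749 ± 63.8), *Aldoa* (487 ± 124), *Pkm* (349 ± 35.6), *Tpi1* (342 ± 66.6) and *Gpi1* (341 ± 56.9), and neighbours in this order differed by less than their SD except on either side of *Aldoa*. The summed TPM of the 10 genes of this segment was 2172 to 2914 in the controls and 2286 to 2461 in *Gp130* ecKO. The log2 fold changes of *Aldoa*, *Tpi1*, *Pgk1*, *Pgam1*, *Eno1*, *Pkm* and *Gapdh* lay between −0.43 and 0.14, and all overlapped between groups. *Pgam1* (phosphoglycerate mutase) was the most even, at 234, 214 and 212 CPM in control uteri and 205, 214 and 240.4 CPM in *Gp130* ecKO, with a 95% confidence interval of −0.36 to 0.35 for its log2 fold change. *Gapdh*, often used as a reference gene, was at 463, 282 and 347 CPM in control uteri and 231, 258 and 321 CPM in *Gp130* ecKO (−0.43 ± 0.24, adjusted p = 0.291). Values of several of these genes are uncertain to the extent that reads fit copies elsewhere: of all 75-base stretches of their GENCODE transcripts, 49.6% of *Pgk1*, 26.4% of *Pgam1*, 24.5% of *Aldoa*, 16.7% of *Pkm*, 16.0% of *Pfkm* and 14.1% of *Gapdh* also occur in another annotated gene on the same strand. On the opposite strand 37.2% of *Gapdh*, 32.5% of *Slc16a3*, 32.1% of *Pfkl*, 31.5% of *Slc2a12* and 17.6% of *Ugp2* are shared with another gene, which matters only if counting ignored strand.

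The minor isoenzymes of these steps were less even. *Eno2* (the neuronal-type enolase, chr6:124736247-124746636) was at 2.75, 2.55 and 7.93 CPM in control uteri and at 0.769, 1.04 and 0.871 CPM in *Gp130* ecKO, from 66 to 119 counts and 17 to 27 counts. All 3 *Gp130* ecKO uteri were below every control (log2 fold change −2.26 ± 0.55, adjusted p = 0.0906, and −1.56 without control 3). *Aldoc* was at 9.55, 5.44 and 40.5 CPM in control uteri and 3.07, 2.54 and 12.0 CPM in *Gp130* ecKO, with control 3 far above the rest (−1.64 ± 0.87, adjusted p = 0.277). Its log2 fold change was −0.35 without control 3 and −2.67 without *Gp130* ecKO 3. *Eno3*, the muscle-type enolase, overlapped at 4.05 to 5.87 and 3.92 to 5.24 CPM. The neuron and Schwann cell markers summed to 2.55 to 3.67 CPM in control uteri and 1.12 to 2.53 CPM in *Gp130* ecKO, with *Snap25* and *Elavl4* at 3 counts or fewer in every uterus. *Tubb3*, of the same list and named after its values were seen, had 37, 27 and 21 counts in control uteri and 1, 5 and 10 counts in *Gp130* ecKO, every CPM below every control like *Eno2*. Of the 3 tested genes of this list, 2 had a log2 fold change below 0 and 1 above 0, and in only 1 the groups did not overlap. The part of these markers in the *Eno2* values was not tested.

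Both monocarboxylate transporters among the members, *Slc16a1* and *Slc16a3*, were lower in every *Gp130* ecKO uterus than in every control. The groups were apart in this direction for 15.6% of all genes tested. *Slc16a7* and *Slc16a8* were in a separate list of pyruvate and lactate handling. Of its 14 tested genes, 0 lay below every control in all *Gp130* ecKO uteri and 4 lay above (28.6%, against 15.7% of all genes). *Slc16a1* (MCT1, chr3:104545811-104565780) was at 111, 27.1 and 68.8 CPM in control uteri and at 17.7, 21.0 and 14.8 CPM in *Gp130* ecKO, a 3.88-fold lower fitted level (log2 fold change −1.96 ± 0.47, adjusted p = 0.0876, and 0.00182 to 0.255 over 18 alternatives). Control 2 was nearest to the *Gp130* ecKO uteri. *Slc16a3* (MCT4, the exporter of strongly glycolytic cells) was at 5.46, 5.17 and 10.1 CPM in control uteri and 1.04, 3.42 and 2.36 CPM in *Gp130* ecKO, again without overlap (−1.58 ± 0.50, adjusted p = 0.122). *Emb*, which encodes the monocarboxylate transporter partner embigin, was in contrast at 842, 789 and 134 CPM in control uteri and at 1586, 1630.3 and 1571 CPM in *Gp130* ecKO (1.44 ± 0.60, adjusted p = 0.192).

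*Ldha*, which makes lactate, was at 687, 712 and 737 CPM in control uteri and at 492, 467 and 948 CPM in *Gp130* ecKO. The controls were close together and the *Gp130* ecKO uteri lay on both sides of them (−0.16 ± 0.30, adjusted p = 0.756, 95% confidence interval −0.87 to 0.55). *Ldhb* showed the same uterus highest, at 61.1 to 154 CPM in control uteri and 104, 46.4 and 228 CPM in *Gp130* ecKO (0.29 ± 0.56). *Pdk1* (a kinase that switches off pyruvate dehydrogenase) was at 10.9, 23.5 and 19.3 CPM in control uteri and at 27.8, 30.6 and 27.9 CPM in *Gp130* ecKO, all above every control (0.69 ± 0.29, adjusted p = 0.196). *Pdk4* was rare and overlapped (−0.50 ± 0.59).

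**Figure D3:**
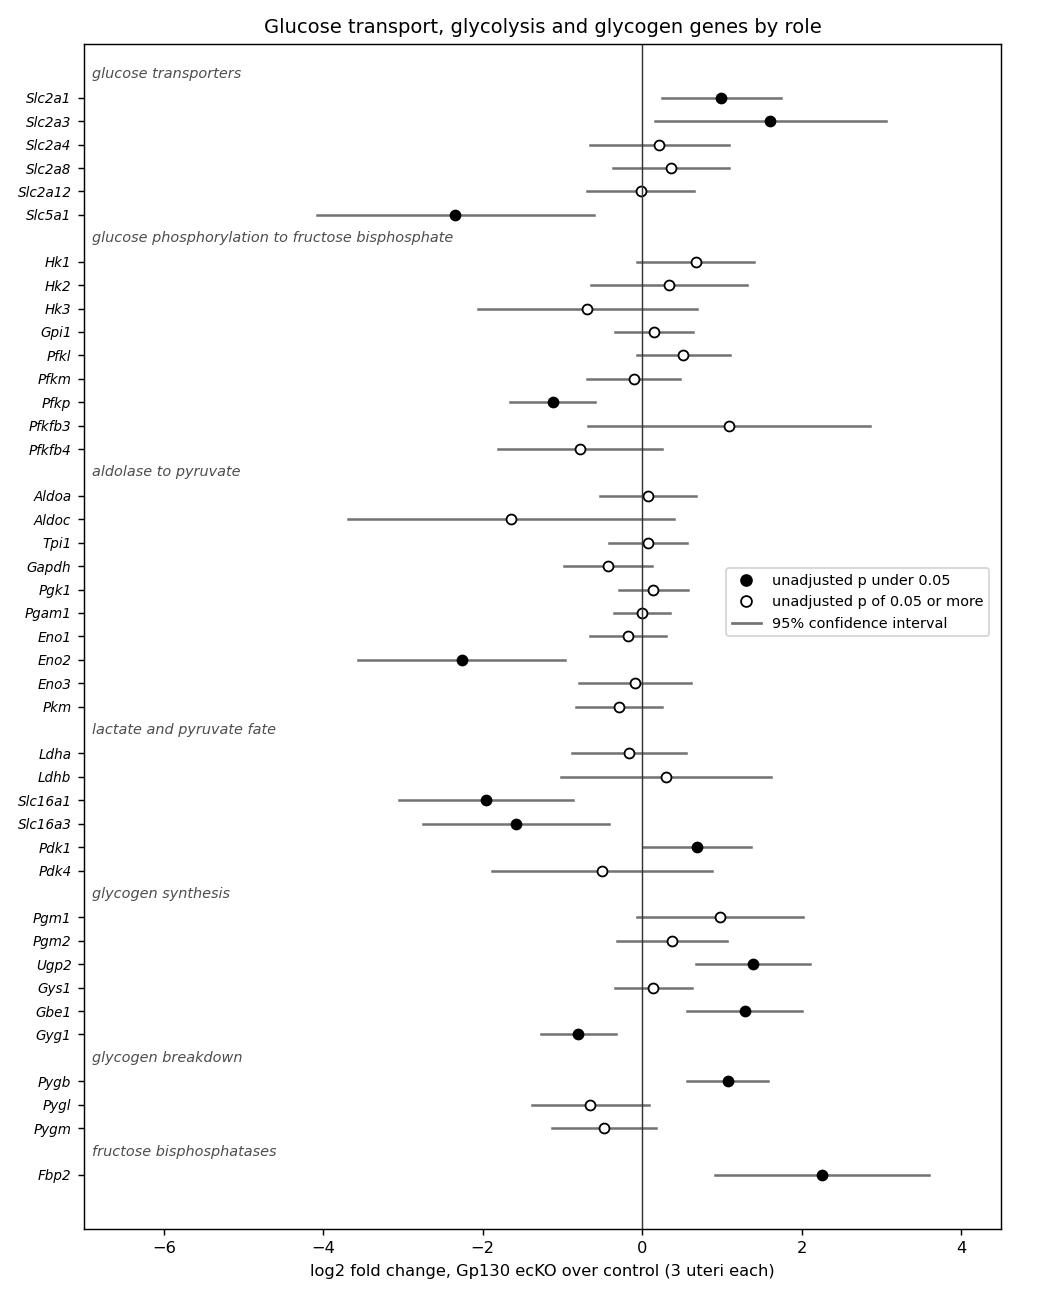
Log2 fold change of *Gp130* ecKO over control (horizontal axis) with its 95% confidence interval for the 41 tested genes, grouped by role, from edgeR's quasi-likelihood fit on 3 uteri per group. Filled points mark the 13 genes with an unadjusted p under 0.05, and none of the 41 has an adjusted p under 0.05.

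Glycogen genes stood on both sides of the comparison. *Ugp2* (UDP-glucose pyrophosphorylase, which supplies UDP-glucose, chr11:21270384-21321276) was at 163, 289.9 and 149.6 CPM in control uteri and at 501, 428 and 649 CPM in *Gp130* ecKO, 2.62-fold higher in the fit (log2 fold change 1.39 ± 0.30, adjusted p = 0.0802, and 0.00122 to 0.223 over 18 alternatives). *Gbe1* (glycogen branching enzyme, chr16:70110715-70366609) was at 24.1, 27.4 and 20.1 CPM in control uteri and at 55.9, 36.2 and 82.2 CPM in *Gp130* ecKO (1.28 ± 0.31, adjusted p = 0.0876). In both genes all *Gp130* ecKO uteri were above every control, and *Gp130* ecKO 3 was highest. *Gyg1* (glycogenin, the protein primer of the glycogen particle, chr3:20158406-20209481) was lower instead, at 39.4, 29.6 and 32.1 CPM in control uteri and 17.2, 19.1 and 21.7 CPM in *Gp130* ecKO (−0.80 ± 0.20, adjusted p = 0.0922).

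*Gys1* (glycogen synthase of most tissues) was at 36.1, 27.1 and 26.3 CPM in control uteri and at 29.3, 30.8 and 38.5 CPM in *Gp130* ecKO, overlapping (0.14 ± 0.21, adjusted p = 0.698, 95% confidence interval −0.35 to 0.63). *Pgm1*, which interconverts glucose 1- and 6-phosphate, was at 33.8, 80.7 and 29.3 CPM in control uteri and 139, 78.3 and 65.3 CPM in *Gp130* ecKO, with control 2 inside the *Gp130* ecKO range (0.97 ± 0.45, adjusted p = 0.223). Its log2 fold change was 1.61 without control 2 and 0.58 without *Gp130* ecKO 1. *Pgm2* overlapped as well (0.38 ± 0.30). Of the 6 synthesis genes, 5 thus had fitted values above 0 and *Gyg1* was below, and their summed TPM was 201 to 302 in the controls and 445 to 521 in *Gp130* ecKO, with *Ugp2* the largest part in every uterus.

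Of the glycogen phosphorylases, which release glucose 1-phosphate, the brain-type *Pygb* (chr2:150628628-150673685) was at 110.4, 125 and 85.5 CPM in control uteri and at 279, 199.5 and 197 CPM in *Gp130* ecKO, all above every control (2.10-fold, log2 fold change 1.07 ± 0.22, adjusted p = 0.0732, and 0.00125 to 0.218 over 18 alternatives). The liver-type *Pygl* was at 20.7, 33.7 and 21.3 CPM in control uteri and 12.7, 22.4 and 13.2 CPM in *Gp130* ecKO (−0.65 ± 0.31, adjusted p = 0.242), where only *Gp130* ecKO 2 reached the control range. The muscle-type *Pygm* was at 10.7 to 19.1 CPM in control uteri and 9.20 to 11.2 CPM in *Gp130* ecKO (−0.48 ± 0.28).

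The fructose bisphosphatases reverse the phosphofructokinase step. *Fbp2*, the muscle-type isoenzyme, was at 0.202, 0.925 and 0.267 CPM in control uteri and at 2.58, 1.77 and 2.69 CPM in *Gp130* ecKO, from 5, 24 and 4 counts and 57, 46 and 65 counts. At this low level all *Gp130* ecKO values exceeded those of the controls (log2 fold change 2.25 ± 0.57, adjusted p = 0.0949). It was 3.36 without control 2 and 1.86 without control 1. *Fbp1*, the liver-type isoenzyme, had at most 6 counts in any uterus and was the member not tested. Skeletal muscle markers summed to 10.4 to 16.5 CPM in control uteri and 5.08 to 15.8 CPM in *Gp130* ecKO, with *Myh1*, *Myh4* and *Atp2a1* at 3 counts or fewer in every uterus and most of the sum from *Acta1* in control uteri (8.80 to 14.8 CPM). Their part in the *Fbp2* values was not tested.

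The mix of isoenzymes within a family was compared as each gene's share of the family's summed TPM in a uterus, with exact two-sided permutation tests over uteri. With 3 against 3 the smallest p these tests can give is 0.1, so none of the 16 shares could pass 0.05, and after Benjamini-Hochberg adjustment over the 16 the smallest was 0.229. *Pygb* made up 64.8%, 57.6% and 67.4% of glycogen phosphorylase TPM in the controls and 88.1%, 79.4% and 84.1% in *Gp130* ecKO (exact permutation p = 0.1). The shares of *Pygl* (mean 19.6% in the controls and 8.40% in *Gp130* ecKO) and *Pygm* (17.1% and 7.73%) were lower in all 3 *Gp130* ecKO uteri than in every control. *Pfkl* made up 56.7%, 65.4% and 51.0% of phosphofructokinase TPM in the controls and 82.5%, 76.0% and 71.9% in *Gp130* ecKO, and *Pfkp* 30.0%, 18.4% and 31.8% against 8.57%, 10.7% and 10.7% (exact permutation p = 0.1 for each). The hexokinase, aldolase and lactate dehydrogenase mixes overlapped between groups except for the minor *Hk3*, at 0.817% to 1.60% in the controls and 0.166% to 0.716% in *Gp130* ecKO. *Eno2* was at 0.759% to 2.97% of enolase TPM in the controls and 0.288% to 0.436% in *Gp130* ecKO.

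**Figure D4:**
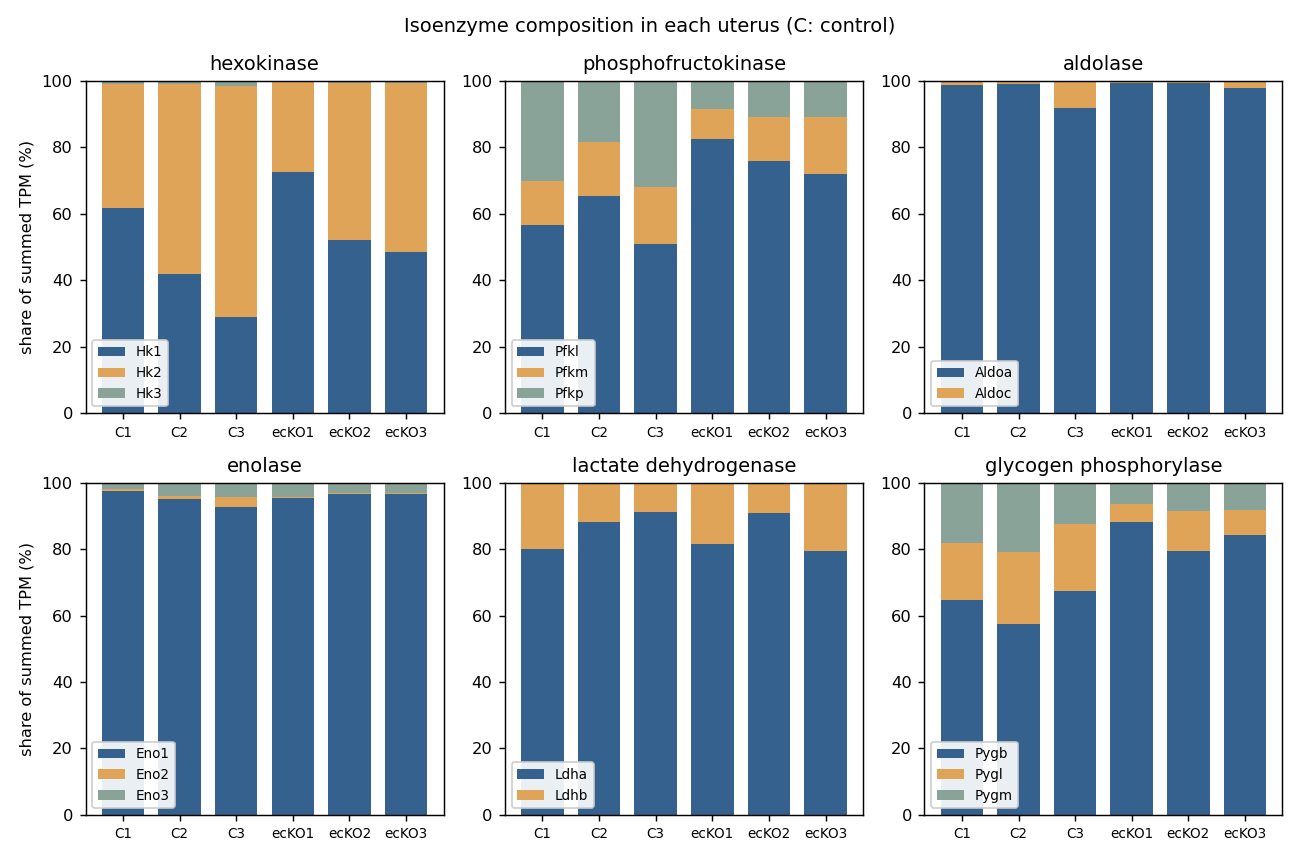
Share of each isoenzyme in the summed TPM of its family (vertical axis, percent) in each uterus, with C1 to C3 the controls and ecKO1 to ecKO3 the *Gp130* ecKO uteri. *Pfkl* and *Pygb* take larger shares in all 3 *Gp130* ecKO uteri than in any control, and the aldolase and enolase families are almost wholly *Aldoa* and *Eno1* in every uterus.

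The sequence just before the transcription start was read for the 39 members with a RefSeq promoter entry (not *Slc2a3*, *Slc2a4* or *Gyg1*), as the 250 bases before the RefSeq start. In the 5 members whose windows were placed on GRCm39, these ran past the first base of the GENCODE gene. Only 81 of the 250 bases preceded it in *Slc16a1* and 87 in *Pfkp*. The pattern counts and shares can therefore include bases inside the annotated gene. Hypoxia-inducible factors bind the core letters ACGTG, and glycolytic genes are textbook targets of them. Each gene was counted once, as holding a pattern if any of its windows did. Of the 39 members, 10 (25.6%) had more than 1 window, against 15.4% of all 27025 genes with an entry. The core, searched on both strands, was in 20 of 39 members (51.3%, against 18.5% of all genes), or in 18 (46.2%, against 16.6%) when only the first window of each gene was read. CACGTG, the E box, which contains ACGTG, was in 6 members (15.4%, against 6.86%) and GGGCGG, the GC box, in 22 (56.4%, against 35.4%). TTCNNNGAA, the pattern bound by STAT factors, which act below Gp130, was in 2 of 39, *Aldoc* and *Pfkm* (5.13%, against 8.13%), and in none of the first windows (7.18% of all genes). The palindromic estrogen response element (GGTCA and TGACC, 3 bases apart) was in 0 of 39 against 0.0666%. A match is a description of the letters and not a binding site, and no match says only that the letters are not in these windows. Of the 5 members with the smallest p, *Pygb*, *Slc16a1* and *Ugp2* hold ACGTG and *Pfkp* and *Gbe1* do not. The stretches of the first 3 that precede both the RefSeq start and the first base of the GENCODE gene are shown 5′ to 3′ in gene direction, with the ACGTG core of either strand in capitals (CACGT is the core on the opposite strand, and CACGTG holds it on both), since these members show the core in genes on both sides of the comparison. They are from RefSeq, matched once each to GRCm39 at chr2:150628466-150628627 (plus strand), chr3:104545730-104545810 (plus strand) and chr11:21321277-21321517 (minus strand).
Pygb: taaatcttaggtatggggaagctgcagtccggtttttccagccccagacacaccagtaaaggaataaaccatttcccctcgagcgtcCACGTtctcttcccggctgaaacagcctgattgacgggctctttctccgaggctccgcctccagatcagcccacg
Slc16a1: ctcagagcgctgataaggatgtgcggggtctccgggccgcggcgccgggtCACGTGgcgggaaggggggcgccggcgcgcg
Ugp2: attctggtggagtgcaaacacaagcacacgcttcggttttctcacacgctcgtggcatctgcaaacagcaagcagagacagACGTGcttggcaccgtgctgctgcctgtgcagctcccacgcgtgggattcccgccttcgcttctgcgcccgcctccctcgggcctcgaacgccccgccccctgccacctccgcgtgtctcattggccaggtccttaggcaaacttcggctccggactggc
*Pygb* and *Ugp2* were higher and *Slc16a1* was lower in *Gp130* ecKO, so the core stood before members of both directions.

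Of the regulators, *Hif1a*, the oxygen-regulated subunit that binds this core, was at 304, 366 and 199 CPM in control uteri and 693, 862 and 756 CPM in *Gp130* ecKO uteri (log2 fold change 1.41 ± 0.26, adjusted p = 0.0648), while its relative *Epas1*, named after its values were seen, was at 211, 111 and 94.7 CPM in control uteri and 56.0, 74.8 and 70.5 CPM in *Gp130* ecKO (−1.05 ± 0.31, adjusted p = 0.115). *Irs1* (insulin receptor substrate) was at 9.26, 26.5 and 20.2 CPM in control uteri and 83.4, 171 and 133 CPM in *Gp130* ecKO (2.79 ± 0.43, adjusted p = 0.0548), and *Sgk1*, a kinase activated downstream of PI3K, at 25.1 to 69.8 and 161 to 518 CPM (2.82 ± 0.55, adjusted p = 0.0677). Of the 22 regulators, 0 passed the quasi-likelihood test, and 8 had an unadjusted p under 0.05 (36.4%, against 25.0% of all genes), 4 in each direction (12.1% of all genes higher and 12.9% lower).

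Other genes of the same pathways, 113 in 7 lists by function, gave 90 tested genes, of which 0 passed the quasi-likelihood test and 23 had an unadjusted p under 0.05 (25.6%, against 25.0% of all genes), 17 higher and 6 lower (12.1% and 12.9% of all genes). The exact test called 11 of them (12.2%, against 8.99% of all genes) and DESeq2 15 (16.7%, against 13.4%). Among other glycolytic enzymes, 3 of 10 tested (30.0%) had an unadjusted p under 0.05, all higher. Of these, *Galm*, which interconverts the anomers of hexoses, was at 28.8, 326 and 29.3 CPM in control uteri and 550.1, 896 and 656 CPM in *Gp130* ecKO (2.45 ± 0.94, adjusted p = 0.167, and 4.63 without control 2). Among other glycogen genes, 2 of 18 (11.1%) had an unadjusted p under 0.05, both higher and against 12.1% of all genes in that direction: *Phkb*, the regulatory subunit of the kinase that activates glycogen phosphorylase, at 44.9 to 62.3 CPM in control uteri and 86.9 to 151 CPM in *Gp130* ecKO (1.11 ± 0.24, adjusted p = 0.0780), and *Gsk3b*, which inhibits glycogen synthase (0.78 ± 0.24, adjusted p = 0.117).

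Branches that leave glycolysis had 5 of 14 tested genes with an unadjusted p under 0.05 (35.7%, against 25.0% of all genes), 3 higher and 2 lower (12.1% and 12.9% of all genes). *Gfpt1*, the entry enzyme of the hexosamine pathway, was at 117, 133 and 122 CPM in control uteri and 323, 244 and 238 CPM in *Gp130* ecKO (1.11 ± 0.18, adjusted p = 0.0576), whereas its paralogue *Gfpt2* was at 8.33 to 20.8 CPM in control uteri and 2.11 to 5.61 CPM in *Gp130* ecKO (−1.56 ± 0.51, adjusted p = 0.130). *G6pdx*, the entry enzyme of the pentose phosphate pathway, was at 98.7 to 136 CPM in control uteri and 239 to 338 CPM in *Gp130* ecKO (1.17 ± 0.21, adjusted p = 0.0638). Of 14 genes of pyruvate and lactate handling, 2 had an unadjusted p under 0.05 (14.3%), both higher and against 12.1% of all genes in that direction. They were *Emb*, given above, and *Pdp2*, a phosphatase that reactivates pyruvate dehydrogenase (1.90 ± 0.48, adjusted p = 0.0947, and 2.71 without control 2). Gluconeogenesis had 3 of 5 (60.0%), all higher and against 12.1% of all genes in that direction (*G6pc3*, *Pck1* and *Pcx*, with log2 fold changes of 0.52 to 1.63). At an adjusted p under 0.05 the exact test and DESeq2 called 0 of these 5 (8.99% and 13.4% of all genes). The groups did not overlap in 2 of the 5 (40.0%, against 31.3% of all genes). *Pck1* was at 1.63, and 0.67 without *Gp130* ecKO 1, and *Pcx* at 1.12, and 1.94 without control 2. The 7 tested genes of the remaining list, of other Slc2a family and related transporters, had 0, with the smallest p for *Slc2a13* (−1.04 ± 0.47, adjusted p = 0.221).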

How the data were processed

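RNA from the 6 uteri was sequenced as 75-bp single reads from strand-specific poly(A) libraries. Per the study's methods, the authors trimmed reads (fastp 0.23.2), removed ribosomal reads, mapped them to GRCm39 (STAR 2.7.10a) and deposited expected counts, TPM and FPKM per gene (RSEM 1.3.3). RSEM divides reads shared between similar genes, and whether counting used strand is not given in the sources used here. Deposited expected counts were rounded, filtered with filterByExpr, scaled by TMM and tested with edgeR 4.0.16 (R 4.3.3; quasi-likelihood F test, Benjamini-Hochberg over 16605 genes), without a block. Standard errors are the log2 fold change over the square root of F. Deposited TPM, and FPKM as an alternative, gave the isoenzyme shares. Alternatives used DESeq2 1.42.0, limma 3.58.1, other scalings and filters, and each uterus left out. Symbols came from GENCODE M39, which holds 56017 of the 56748 identifiers, and promoters from RefSeq (GRCm38.p6), placed on GRCm39 by exact single matches.

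The members and gene lists were chosen with earlier results of these data known. Members with an unadjusted p under 0.05 or groups that do not overlap, and 12 members preset as rate-limiting or well studied, are given in full. Of each other pathway list, up to 3 genes with the smallest p and a mean CPM of at least 1 are named. One gene that this rule names is not reported here.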

Additional observations from a re-analysis of the deposited data

How the results depend on the processing

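Of 738 comparisons of a member's log2 fold change with an alternative (41 members, 18 alternatives), 715 kept the direction of the main fit, and 31 members kept it in all 18. The count past an adjusted p of 0.05 and over 2-fold was 0 in the main fit, 8 with the exact test, 8 with the likelihood ratio test, 11 with DESeq2, 7 at an adjusted p under 0.10, and 0 to 6 with 1 uterus left out, 6 only without control 2. At any fold it was 9, 9 and 12 with the exact test, likelihood ratio test and DESeq2, and 0 to 6 with 1 uterus left out. For the other pathway genes it was 0 in the main fit, 11, 11 and 15 with those tests (8.99%, 9.50% and 13.4% of all genes), 1 without the filter on low counts, 10 at an adjusted p under 0.10, and 0 to 13 with 1 uterus left out, 13 without control 2 (5.41% of all genes). No share of all genes is given here at an adjusted p under 0.10 or without the filter. The counts under those settings therefore cannot be read against all genes. The median member log2 fold change was 0.07, and −0.032 to 0.28 with 1 uterus left out. *Il6st* passed with DESeq2 (−0.67). The causes were not tested.

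Uteri with the same replicate number did not deviate together (correlations of 0.10, 0.06 and −0.19), so the numbers were not taken as pairs. With the number as a replicate block, 0 members passed, 19 against 13 had an unadjusted p under 0.05 (22.1% against 25.0% of all genes), 1 other pathway gene passed, and *Slc2a12* had a log2 fold change of 0.056.

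Reversals were in 10 members, with main log2 fold changes from −0.50 (*Pdk4*) to 0.29 (*Ldhb*). The Slc2a12 log2 fold change was 0.066 with limma voom, 0.00717 without the filter and −0.26 to 0.35 with 1 uterus left out. *Pgam1* was at 0.013 with DESeq2, 0.013 with RLE size factors, 0.030 without the filter and −0.044 to 0.072 with 1 uterus left out. With 1 uterus left out the other ranges were −0.032 to 0.45 for *Slc2a4*, −0.23 to 0.075 for *Pfkm*, −0.069 to 0.38 for *Aldoa*, −0.072 to 0.29 for *Tpi1*, −0.19 to 0.043 for *Eno3*, −0.54 to 0.020 for *Ldha*, −0.43 to 0.73 for *Ldhb* and −0.86 to 0.28 for *Pdk4*. The share differences of *Eno1* and *Eno3* ranged from −0.12 to 2.26 and from −0.76 to 0.52 percentage points. Depth limits rare members such as *Fbp2*, with 4 to 65 counts in a uterus.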
